A study of Mus musculus with 18 samples.

Results

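The genes described here are 34 genes of cholesterol and fatty acid synthesis, taken by name from the deposited tables of 2 mouse lung cancer lines, EA1 and EA2. They comprise 18 enzymes from acetyl-CoA to cholesterol, 5 genes that control the SREBP transcription factors, 1 sterol carrier and 10 enzymes of fatty acid synthesis, elongation and desaturation. All 34 were found among 24335 genes in EA1 and 24320 in EA2, and all 34 passed the filter on low values in each line. Values are FPKM, that is, fragments mapped to a gene scaled by its transcript length and by the size of the library, and every change given is in vivo minus in vitro on log2(FPKM + 1).

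The study asked how the transcriptome of lung cancer cells differs between culture and growth in the lung. EA1 is p53 wild type and EA2 is p53 null, and both are driven by the Eml4-Alk fusion. In vitro cells (5 EA1 and 3 EA2 libraries) were passaged in RPMI-1640 with fetal bovine serum alongside the animals. In vivo cells (5 libraries of each line) were the GFP-negative cells sorted from the left lungs of male C57BL/6 mice with GFP in all tissues, 8 to 12 weeks old, that had received 200000 EA1 or 500000 EA2 cells 4 weeks before by the study's methods. Each in vivo library pooled 3 to 5 mice. Each line stands for a single tumor genotype, and a host cell without GFP would pass the sort.

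Cholesterol is built from acetyl-CoA through mevalonate, isoprenoids, squalene and lanosterol, and fatty acids are built from the same acetyl-CoA by carboxylation and chain growth. Both routes are controlled by SREBP proteins, which are held in the endoplasmic reticulum by SCAP and the INSIG proteins while sterol is plentiful and travel to the Golgi for cleavage when it is scarce. SREBP-2 is known mainly for sterol genes and SREBP-1c for fatty acid genes, so a cell can in principle move the branches together or apart.

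SREBP binds a sterol regulatory element close to the start of many target genes, usually with NF-Y at a CCAAT box or Sp1 at a GC box nearby. The promoters of 3 genes are shown because they stand for 3 patterns below: Hmgcs1, a sterol gene called in neither line, Fasn, whose change differed most between the lines, and Msmo1, which fell most in EA2. Each line gives the bases from 250 before to 50 after the start site (RefSeq, GRCm38.p6), in lower case, with capitals for TCACCCCAC, for CCAAT and for GGGCGG on either strand (read as ATTGG and CCGCCC on the reverse).
Hmgcs1, chr13:119690101-119690400, plus strand: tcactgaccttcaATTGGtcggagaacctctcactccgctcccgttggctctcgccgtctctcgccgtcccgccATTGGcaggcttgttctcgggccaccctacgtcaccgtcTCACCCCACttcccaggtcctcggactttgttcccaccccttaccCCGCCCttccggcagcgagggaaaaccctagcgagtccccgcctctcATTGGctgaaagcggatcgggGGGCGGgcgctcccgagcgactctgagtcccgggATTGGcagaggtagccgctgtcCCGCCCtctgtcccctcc
Fasn, chr11:120824498-120824797, minus strand: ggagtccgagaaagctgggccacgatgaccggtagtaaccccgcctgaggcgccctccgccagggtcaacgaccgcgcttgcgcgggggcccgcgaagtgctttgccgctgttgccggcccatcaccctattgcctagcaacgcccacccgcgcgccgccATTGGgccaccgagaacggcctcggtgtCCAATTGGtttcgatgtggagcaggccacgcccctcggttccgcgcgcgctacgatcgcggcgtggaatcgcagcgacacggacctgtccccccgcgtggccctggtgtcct
Msmo1, chr8:64733529-64733828, minus strand: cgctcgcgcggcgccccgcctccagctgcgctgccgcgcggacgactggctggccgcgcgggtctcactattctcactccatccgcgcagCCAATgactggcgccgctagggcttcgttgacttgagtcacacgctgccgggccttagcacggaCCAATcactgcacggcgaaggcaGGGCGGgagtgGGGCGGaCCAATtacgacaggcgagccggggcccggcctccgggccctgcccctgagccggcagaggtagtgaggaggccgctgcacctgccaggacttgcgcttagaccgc
Hmgcs1 held the sterol regulatory element once, with its first base 137 before the start site, together with 4 CCAAT boxes and 3 GC boxes. Fasn held 3 CCAAT boxes, 2 of them overlapping, and Msmo1 held 3 CCAAT boxes and 2 GC boxes. RefSeq promoters were matched for 27 of the 34 genes, with 35 promoters in all. TCACCCCAC was in 1 of the 35 and in 0.551% of all 32851 promoters, and its looser form TCACNCCAC, which includes it, was in 1 of the 35 and in 1.24% of all. CCAAT was in 23 of the 35 against 37.4% of all, GGGCGG in 26 against 35.7%, and the E-box CACGTG in 7 against 7.15%. These matches describe letters in a window and say nothing of binding, and none of them was tested against the changes below.

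Some libraries stood apart before any comparison. Summed FPKM lay between 475434 and 569388 in 16 of the 18 libraries, but reached 733184 and 717905 in EA2 in vitro libraries 1 and 3. In the EA2 in vitro libraries 1, 2 and 3 the longest eighth of the genes (about 6300 bases and more) lay at a median log2 difference of -1.11, -0.38 and -0.78 from the in vivo mean, while it lay 0.22 to 0.32 above that mean in EA1 in vitro. Several of the 34 genes have long transcripts, up to 10050 bases for Fasn and 9513 for Acaca. Among the 34 genes, EA2 in vitro library 1 had the lowest in vitro FPKM for 31, and EA1 in vitro library 3 for 30. Results that rest on these libraries are therefore given with and without them.

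The labelled cell type was checked against epithelial markers. In EA1 the mean FPKM in vitro and in vivo was 1486 and 878 for the keratin Krt8, 1341 and 683 for Krt18, 306 and 281 for Krt7, and 204 and 181 for the cadherin Cdh1. Epcam went from 1.89 in vitro to 102 in vivo and the lung factor Nkx2-1 was at the floor of 0.01 in every in vitro library. In EA2 these means were 691 and 441 for Krt18, 49.3 and 27.5 for Krt8, and 6.79 and 19.2 for Cdh1, while Krt7, Epcam and Nkx2-1 all had means under 1 FPKM in both conditions.

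In vivo EA1 cells had less RNA of most fatty acid enzymes than cultured EA1 cells. In vivo EA2 cells had more Fasn RNA, while the EA2 rises of other fatty acid enzymes depended on the processing or on the cultures used. Over the 34 genes, 3 were higher and 17 lower in vivo in EA1 (limma, adjusted p under 0.05), with 14 not called. Of all 11212 genes tested in EA1, 30.9% were called higher and 40.7% lower, so the share of lower genes here (50%) was somewhat above the background and that of higher genes (8.82%) well below it. The median change was -0.35, against -0.09 over all genes. In EA2, 9 were higher, 4 lower and 21 not called, against 32.9% called higher and 24.4% lower (57.3% in all) of 11074 genes, so the shares here (26.5% and 11.8%) were both below the background. The EA2 median change was 0.17, against 0.18 over all genes. Of the 34 genes, 6 fell in EA1 and rose in EA2 (Srebf1, Srebf2, Acly, Acaca, Fasn and Scd2), 2 fell in both (Msmo1 and Sc5d), 1 rose in both (Acss2) and 10 were called in neither. Acss2 was under 1 FPKM in every EA2 culture. It was tested in EA2 only because of its in vivo levels and could there only be called higher. In bulk RNA, fewer cells that express a gene and less RNA of it per cell cannot be told apart.

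**Figure D1:**
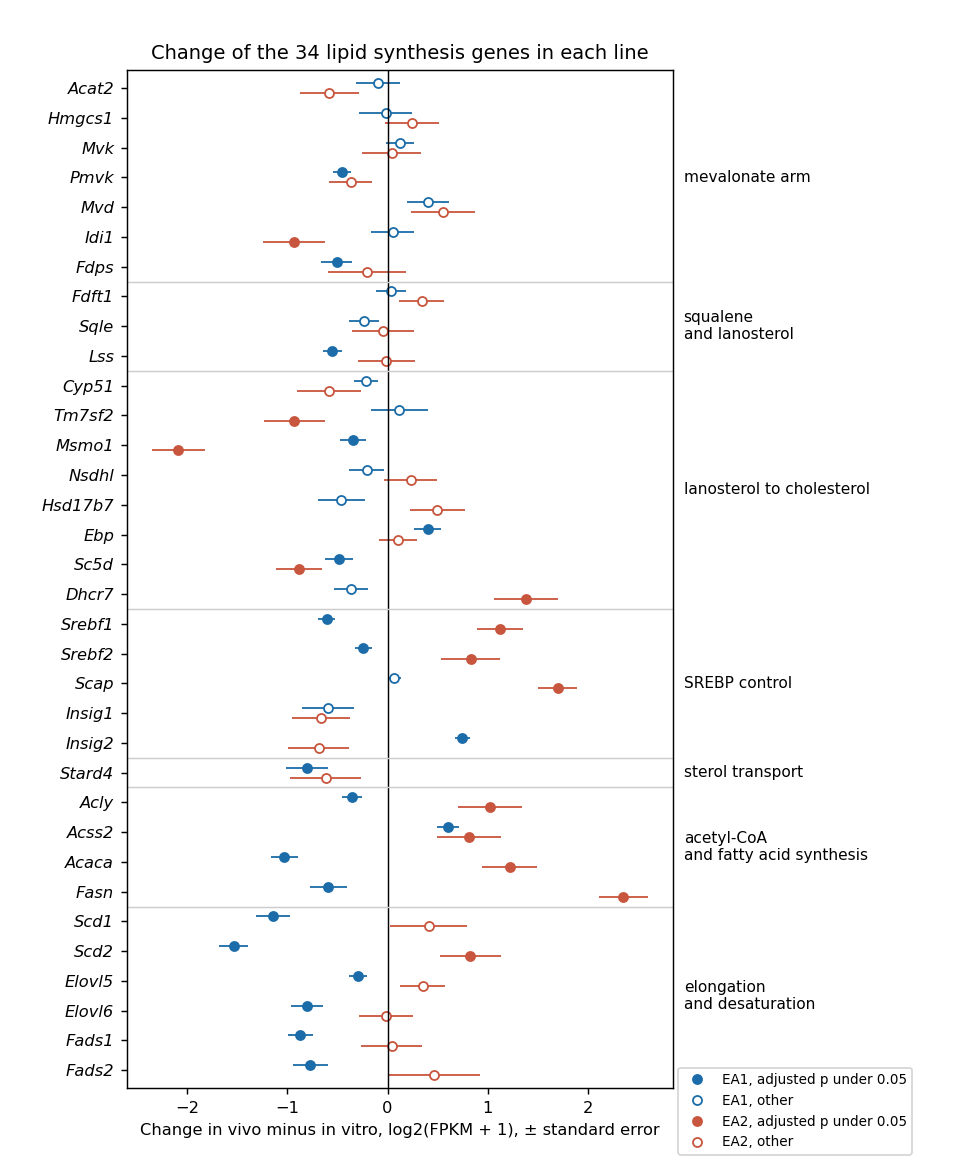
Change of each gene in vivo minus in vitro on log2(FPKM + 1) in EA1 (blue) and EA2 (red), with the standard error of the limma fit and filled points where the adjusted p was under 0.05. Among the fatty acid enzymes in the lowest 2 blocks, 9 EA1 points are filled below 0 and 5 EA2 points are filled above 0, while of the 18 sterol enzymes 1 point is filled above 0 in each line and 5 (EA1) and 4 (EA2) are filled below 0.

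The regulators came first. Srebf1 encodes SREBP-1, the activator known for fatty acid genes. Its FPKM in EA1 was 78.3, 73.1, 59.7, 68.4 and 79.4 in the in vitro libraries 1 to 5 and 43.2, 45.6, 47.9, 52.2 and 44.6 in vivo. Every EA1 in vivo library was below every in vitro library. In EA2 it was 11.03, 23.7 and 18.2 in vitro and 40.9, 38.2, 38.6, 39.1 and 33.0 in vivo, so all in vivo libraries were above all in vitro ones. The change was -0.61 in EA1 (standard error 0.084, adjusted p = 6.55e-05 from limma, exact permutation p = 0.00794) and 1.12 in EA2 (standard error 0.23, adjusted p = 0.00222, exact permutation p = 0.0179). These exact p-values are the smallest that 5 against 5 and 3 against 5 libraries allow. Both Srebf1 calls held under all alternatives and with each library left out, and the EA2 change was 0.65 with in vitro library 2 alone.

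Srebf2 encodes SREBP-2, the activator known for sterol genes. In EA1 its FPKM was 90.1, 82.9, 74.1, 82.5 and 87.3 in vitro and 68.5, 79.2, 81.1, 61.7 and 63.1 in vivo, and the groups overlapped in 2 in vivo libraries. EA2 libraries had 15.0, 40.4 and 24.1 in vitro and 57.1, 34.7, 46.7, 37.1 and 49.9 in vivo, where in vitro library 2 lay within the in vivo range. The changes were -0.24 in EA1 (standard error 0.088, adjusted p = 0.0294 from limma) and 0.83 in EA2 (standard error 0.30, adjusted p = 0.0329). Neither call held throughout. The EA1 call was lost without in vitro library 1, 2, 4 or 5 or in vivo library 1, 4 or 5, at -0.24 to -0.19, and under 4 other alternatives, among them the length correction at -0.13. The EA2 call was lost without in vitro library 1 or 3 or in vivo library 1, 3 or 5, at 0.49 to 0.82, and with in vitro library 2 alone the change was 0.13.

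Scap encodes the escort protein that carries SREBP to the Golgi. It was flat in EA1, with FPKM of 29.1, 27.9, 27.5, 25.2 and 25.4 in vitro and 29.4, 27.2, 27.8, 31.4 and 26.0 in vivo. In EA2 it was 7.28, 12.4 and 8.63 in vitro and 31.3, 34.3, 32.1, 33.8 and 29.7 in vivo. All EA2 in vivo libraries were thus at least 29.7, against at most 12.4 in vitro, a ratio of means of 3.42. The EA2 change of 1.70 (with a standard error of 0.19 and an adjusted p = 9.65e-05 from limma, exact permutation p = 0.0179) was called under all alternatives and was 1.31 with in vitro library 2 alone. In EA1 the change was 0.07 (standard error 0.065, adjusted p = 0.375), and median-of-ratios scaling made it 0.22 and called (adjusted p = 0.0168).

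Insig1 and Insig2 encode the proteins that hold SCAP back, and Insig1 is itself a textbook SREBP target. Insig1 in EA1 was 49.3, 25.0, 16.5, 33.8 and 36.4 FPKM in vitro and 17.1, 18.7, 18.3, 29.8 and 16.8 in vivo. EA2 cultures had 13.97, 20.0 and 36.2, and EA2 in vivo libraries 16.7, 12.4, 17, 11.8 and 10.3, so the groups overlapped in both lines. Neither change passed the threshold, at -0.60 in EA1 (adjusted p = 0.059 from limma) and -0.66 in EA2 (adjusted p = 0.0722). With median-of-ratios scaling the EA2 change of -0.83 did, with quantile normalization that of -0.84, and without EA1 in vitro library 3, the lowest of its group, the EA1 change of -0.81 did, as did that of -0.63 with the length trend removed (adjusted p = 0.0497). Without EA2 in vitro library 1 the EA2 change was -0.96 and called. Insig2 moved otherwise in EA1, from 19.0, 18.4, 19.6, 19.8 and 21.3 FPKM in vitro to 37.6, 35.9, 30.7, 29.6 and 34.5 in vivo, with all in vivo libraries above all in vitro ones. Its EA1 change was 0.75 (standard error 0.074, adjusted p = 5.02e-06 from limma, exact permutation p = 0.00794). In EA2, Insig2 was 42.6, 40.8 and 27.0004 FPKM in vitro and 25.2, 26.3, 35.001, 16.6 and 13.4 in vivo, with overlapping groups and a change of -0.69 that was not called (adjusted p = 0.0724), except under median-of-ratios scaling (-0.86, adjusted p = 0.028) and without in vivo library 3 (-0.85, adjusted p = 0.0311). The ratio of Insig2 to Insig1 FPKM, a measure chosen after the values were seen, was 0.39 to 1.19 in EA1 in vitro and 0.99 to 2.201 in EA1 in vivo. In EA2 it was 0.75 to 3.05 in vitro and 1.30 to 2.12 in vivo, so the cultures enclosed the in vivo range.

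Among the 18 sterol enzymes, 1 rose and 5 fell in EA1 (median change -0.21), and 1 rose and 4 fell in EA2 (median -0.03). The shares of falls, 27.8% and 22.2%, were below the 40.7% and 24.4% of all genes. Those of rises, 5.56% in each line, were below 30.9% and 32.9%. Without EA1 in vitro library 3, 11 of the sterol enzymes fell in EA1 and none rose (median -0.34). Without EA2 in vitro library 1, 6 fell in EA2 (median -0.33). Of all genes, 70.1% and 42.2% were called in either direction in these settings. Under median-of-ratios scaling 2 fell in EA1 and 7 in EA2, where 70.7% and 58.7% of all genes were called in either direction. The 7 enzymes of the mevalonate arm run from Acat2 and Hmgcs1, which condense acetyl-CoA, through the kinases Mvk and Pmvk, the decarboxylase Mvd and the isomerase Idi1 to Fdps, which makes farnesyl diphosphate. In EA1, 2 of 7 fell and none rose, with a median change of -0.02, and in EA2, 1 of 7 fell, with a median of -0.20. The shares of falls here (28.6% and 14.3%) were below those of all genes (40.7% and 24.4%). Without EA1 in vitro library 3, Acat2 also fell in EA1 (-0.32). Pmvk had FPKM of 24.9 to 34.4 in EA1 in vitro and 19.9 to 21.6 in vivo, without overlap, and fell by 0.45 (standard error 0.088, adjusted p = 0.000798 from limma). Fdps, at a mean of 129.9 ± 29.6 FPKM in EA1 in vitro and 89.2 ± 8.58 in vivo (SD, n = 5 each), fell by 0.51 (adjusted p = 0.0128), a call that median-of-ratios scaling removed (-0.35). Hmgcs1, the enzyme whose promoter holds the sterol regulatory element above, spanned 24.9 to 81.7 FPKM across the EA1 in vitro libraries and 38.8 to 54.0 in vivo. In EA2 it spanned 19.3 to 39.1 in vitro and 25.7 to 46.7 in vivo. For this gene the spread among cultures of a line was wider than the distance between the conditions.

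Idi1, which isomerizes isopentenyl diphosphate, was the mevalonate gene that separated the lines. It had 4.06 to 12.7 FPKM in EA1 in vitro and 7.53 to 9.44 in vivo, and 34.96 to 57.9 in EA2 in vitro against 11.5 to 32.2 in vivo, where the groups did not overlap. The EA2 change was -0.93 (adjusted p = 0.0247 from limma), but -0.74 (not called) without in vitro library 3, and it was not called with in vitro library 2 alone, with a replicate block or without the filter on low values.

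Of the 3 enzymes between farnesyl diphosphate and lanosterol, the squalene synthase Fdft1 and the epoxidase Sqle were called in neither line, though Sqle fell in EA1 without in vitro library 3 (-0.36). Lss, which closes the ring to lanosterol, had 12.8 to 17.1 FPKM in EA1 in vitro and 8.46 to 11.6 in vivo, with no overlap. It fell by 0.55 (standard error 0.096, adjusted p = 0.000351 from limma) under all alternatives. In EA2 Lss spanned 3.00 to 8.89 FPKM in vitro and 4.03 to 6.52 in vivo and was not called.

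The 8 enzymes from lanosterol to cholesterol did not move as a block. In EA1, 1 rose and 2 fell, and in EA2, 1 rose and 3 fell. Falls made up 25% in EA1 and 37.5% in EA2, against 40.7% and 24.4% of all genes. Rises made up 12.5% in each line, against 30.9% and 32.9%. Msmo1, which removes the methyl groups at carbon 4 of the sterol ring, had the largest fall of the 34 genes in EA2. Its EA2 FPKM was 179, 120.5 and 223 in vitro and 51.8, 36.1, 50.9, 29.0 and 32.7 in vivo. The lowest in vitro library was above the highest in vivo library by more than the in vivo range, and the in vitro mean was 4.34 times the in vivo mean. The change was -2.08 (standard error 0.27, adjusted p = 0.000188 from limma, exact permutation p = 0.0179), -2.07 with the length trend removed and -1.60 with in vitro library 2 alone. In EA1, Msmo1 was 112, 91.7, 73.8, 109 and 122 FPKM in vitro and 76.4, 86.3, 89.4, 71.4 and 71.6 in vivo, with overlapping groups. The EA1 change of -0.34 (adjusted p = 0.0326 from limma) was lost without in vitro library 1, 4 or 5 or in vivo library 1, 4 or 5, at -0.33 to -0.27, and under 3 other alternatives.

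Dhcr7, the reductase of the last step in one route to cholesterol, went the other way in EA2. Its EA2 FPKM was 1.05, 4.15 and 5.25 in vitro and 11.2, 8.33, 9.35, 10.8 and 8.25 in vivo, without overlap. In EA1 it was 27.4, 20.1, 12.7, 19.9 and 23.6 in vitro and 15.4, 18.3, 15.8, 12.9 and 15.1 in vivo, with overlap. The EA2 change was 1.38 (standard error 0.32, adjusted p = 0.00414 from limma, exact permutation p = 0.0179), 0.89 without in vitro library 1 and 1.03 with in vitro library 2 alone. The EA1 change of -0.36 did not pass the threshold (adjusted p = 0.0769), and it was -0.52 and called without in vitro library 3.

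Sc5d, the desaturase ahead of Dhcr7, fell in both lines. It had 22.02 to 41.4 FPKM in EA1 in vitro and 20.8 to 23.6 in vivo (change -0.48, adjusted p = 0.00996 from limma), and 26.0 to 41.1 in EA2 in vitro and 14.1 to 24.6 in vivo (change -0.88, adjusted p = 0.00761). The EA1 groups overlapped and the EA2 groups did not, and with in vitro library 2 alone the EA2 change was -1.12, while a replicate block removed the EA2 call (-0.69). The EA1 call was lost with median-of-ratios scaling at -0.33. Ebp, the sterol isomerase, rose in EA1 by 0.40 (adjusted p = 0.0209), from 44.1 to 66.9 FPKM in vitro to 52.1 to 81.6 in vivo. That call was lost without in vitro library 3 or in vivo library 2 or 3, at 0.33 to 0.35. Tm7sf2, a sterol reductase, fell in EA2 by 0.93 (adjusted p = 0.0224), but by 0.54 and without a call when in vitro library 3, at 8.40 FPKM, was left out. Cyp51, Nsdhl and Hsd17b7, which act in demethylation of the sterol ring, were called in neither line. Without EA1 in vitro library 3 all of them fell in EA1, at -0.31 for Cyp51, -0.38 for Nsdhl and -0.63 for Hsd17b7.

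Stard4 encodes a small carrier of cholesterol between membranes. In EA1 it had 10.4 to 27.8 FPKM in vitro and 10.1 to 11.6 in vivo, a narrow in vivo range at the level of the lowest culture, and it fell by 0.80 (standard error 0.21, adjusted p = 0.0048 from limma). In EA2 it had 5.98 to 15.1 in vitro and 3.16 to 10.7 in vivo and was not called.

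**Figure D2:**
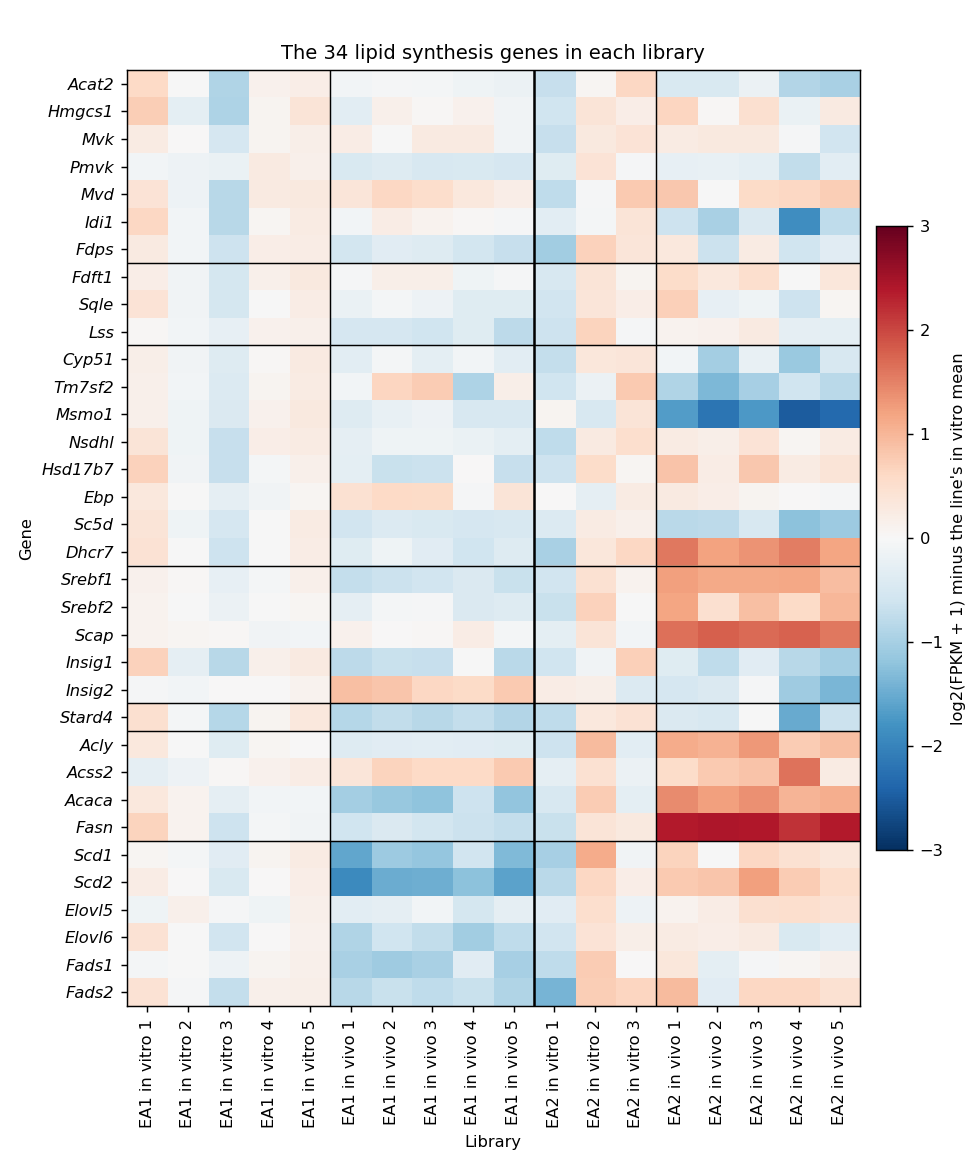
Each cell is log2(FPKM + 1) of a gene in a library minus the mean of the in vitro libraries of that line, with genes in rows by role and the 18 libraries in columns. EA1 in vitro library 3 is the palest to blue column among EA1 cultures (lowest in 30 of 34 genes) and EA2 in vitro library 1 among EA2 cultures (lowest in 31 of 34), while Fasn is red in all 5 EA2 in vivo libraries and Scd2 blue in all 5 EA1 in vivo libraries.

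Most fatty acid enzymes changed differently in the 2 lines, as did 4 of the 5 SREBP control genes and 63.3% of all genes. Of the 10 enzymes of fatty acid synthesis, 9 fell and 1 rose in EA1 (median change -0.79). In EA2, 5 of them rose and none fell (median 0.64). Falls made up 90% in EA1, against 40.7% of all genes, and rises made up 50% in EA2, against 32.9%. The EA2 rises include Acss2, which could only be called higher. They numbered 2 without in vitro library 1, 7 without library 2 and 2 without library 3. Of all genes, 42.2%, 66.6% and 45.5% were called in either direction in these settings. The EA1 counts were unchanged under 5 of 7 alternatives that kept all libraries, with 6 falls under median-of-ratios scaling and 8 with the length trend removed. In EA2, 3 rose without the filter on low values and 3 under median-of-ratios scaling, 2 with the length trend removed and 1, Fasn, with in vitro library 2 alone, where the median was -0.03. Of all genes in EA2, 34.7% were called without the filter, 58.7% under median-of-ratios scaling and 53.4% with the length trend removed. The FPKM of the 10 fatty acid enzymes summed to 834 to 1254.5 in EA1 in vitro and 456 to 599 in vivo. In EA2 the sums were 168, 462 and 288 in the in vitro libraries 1, 2 and 3 and 428 to 547 in vivo, so that in vitro library 2 alone reached the in vivo range. The sums of the 18 sterol enzymes, 429 to 784 in EA1 in vitro and 506 to 606 in vivo, overlapped. In EA2 they were 420, 528 and 646 in vitro and 279 to 436 in vivo, with 4 of the 5 in vivo libraries below every culture.

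Fasn encodes fatty acid synthase, the multidomain enzyme that builds palmitate. Its FPKM in EA2 was 5.24, 12.1 and 11.2 in vitro and 51.1, 52.5, 51.5, 44.0 and 51.3 in vivo. The lowest EA2 in vivo library was far above the highest in vitro library, and the means stood at 9.51 ± 3.72 (SD, n = 3) and 50.1 ± 3.46 (SD, n = 5), a ratio of 5.27. The change was 2.35 (standard error 0.25, adjusted p = 6.67e-05 from limma, exact permutation p = 0.0179), the largest rise of the 34 genes. It was 1.66 with the length trend removed and 1.96 with in vitro library 2 alone. In EA1, Fasn was 79.0, 54.0, 32.0, 47.9 and 46.5 FPKM in vitro and 32.5, 36.4, 33.7, 31.3 and 30.0 in vivo. Only in vitro library 3 lay within the EA1 in vivo range, and the change was -0.59 (standard error 0.19, adjusted p = 0.0141), -0.44 and not called with median-of-ratios scaling and -0.38 and not called with the length trend removed.

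Acaca encodes the acetyl-CoA carboxylase that makes malonyl-CoA for Fasn. In EA1 its FPKM was 20.6, 17.7, 13.5, 15.5 and 15.4 in vitro and 7.61, 6.96, 6.49, 10.3 and 6.70 in vivo. Its EA2 values were 1.11, 4.03 and 1.42 in vitro and 6.86, 5.88, 6.67, 4.94 and 5.24 in vivo. The groups did not overlap in either line, with in vivo below in EA1 and above in EA2. The EA1 change was -1.03 (standard error 0.13, adjusted p = 3.86e-05 from limma, exact permutation p = 0.00794) and was called under all alternatives. The EA2 change was 1.22 (standard error 0.28, adjusted p = 0.00357, exact permutation p = 0.0179), but 0.55 with the length trend removed and 0.45 with in vitro library 2 alone, neither of them called.

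Acly, which splits citrate, and Acss2, which activates acetate, supply the acetyl-CoA. Acly had 51.3 to 82.7 FPKM in EA1 in vitro and 50.4 to 52.3 in vivo and fell by 0.35 (adjusted p = 0.00829 from limma), -0.20 and not called with median-of-ratios scaling. In EA2 it was 18.3, 56.3 and 22.7 in vitro and 49.4 to 72.3 in vivo, a change of 1.023 (adjusted p = 0.0184). That call rested on in vitro libraries 1 and 3, since it was lost without either (0.71 and 0.86) and the change was 0.07 with in vitro library 2 alone. Acss2 was the exception in EA1, where it rose from 3.85 to 5.85 FPKM in vitro to 6.52 to 9.11 in vivo without overlap (change 0.60, standard error 0.11, adjusted p = 0.000501). In EA2 Acss2 was low, at 0.111 to 0.845 FPKM in vitro and 0.587 to 3.15 in vivo. It was tested there only because of its in vivo levels and could therefore only be called higher. Its EA2 change of 0.81 (adjusted p = 0.048) was lost without in vitro library 1 or 3 or in vivo library 1, at 0.67 to 0.88, and under 5 other alternatives, and the gene missed the filter in 3 further subsets.

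Scd1 and Scd2 are neighbouring genes on chromosome 19 (GRCm38, 44394455 to 44407879 on the minus strand and 44293674 to 44306864 on the plus strand). Both encode stearoyl-CoA desaturases, which put the first double bond into saturated fatty acids, and reads shared by such similar genes may be split between them by the estimate. Scd2 had the highest mean FPKM of the 34 genes in EA1 in both conditions, with 686, 591, 429, 589 and 675 FPKM in EA1 in vitro and 156, 209.8, 211, 250.5 and 192 in vivo. Its lowest EA1 culture exceeded its highest in vivo library, and the in vitro mean was 2.91 times the in vivo mean. The EA1 change of -1.53 (with a standard error of 0.15 and an adjusted p = 3.6e-06 from limma, exact permutation p = 0.00794) was the largest in that line and was called under all alternatives. In EA2, Scd2 was 53.3, 146 and 108 FPKM in vitro and 165, 170.3, 222, 161 and 136 in vivo, and only in vitro library 2 lay within the in vivo range. The EA2 change of 0.83 (adjusted p = 0.0373) was lost without in vitro library 1 or 3 or in vivo library 1, 2, 3 or 4, at 0.42 to 0.92, and was 0.21 with in vitro library 2 alone.

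Scd1 was 115, 106, 87.0, 118 and 131 FPKM in EA1 in vitro and 36.9, 51.0, 48.8, 73.9 and 43.7 in vivo. The EA1 groups did not overlap, and the change was -1.14 (standard error 0.17, adjusted p = 9.93e-05 from limma, exact permutation p = 0.00794). In EA2 it was 16.0, 71.7 and 30.3 in vitro and 52.7, 32.3, 50.7, 45.3 and 41.6 in vivo. In vitro library 2 was thus the highest and library 1 the lowest of the EA2 libraries, and the change of 0.41 was not called (adjusted p = 0.38) and was -0.70 with in vitro library 2 alone. The ratio of Scd2 to Scd1 FPKM was 4.93 to 5.97 in EA1 in vitro and 3.39 to 4.38 in vivo, and 2.04 to 3.58 in EA2 in vitro and 3.13 to 5.28 in vivo. This ratio therefore did not overlap between the conditions in EA1 and did in EA2, a comparison made after the values were seen and given without a test.

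The desaturases Fads1 and Fads2, which act on polyunsaturated chains and also neighbour each other on chromosome 19, fell in EA1. Fads1 was 58.2, 60.2, 55.1, 64.2 and 67.2 FPKM in EA1 in vitro and 30.8, 28.5, 30.7, 47.7 and 29.8 in vivo. All EA1 in vivo libraries were lower, with library 4 nearest to the cultures, and the change was -0.87 (standard error 0.13, adjusted p = 0.000101 from limma, exact permutation p = 0.00794). In EA2, Fads1 was 19.6, 57.9 and 34.04 in vitro and 42.8, 27.3, 33.1, 35.5 and 37.6 in vivo, so that the cultures enclosed the in vivo range. The EA2 change was 0.04 (adjusted p = 0.92), and its sign turned under 4 alternatives, down to -0.71 with in vitro library 2 alone. Fads2 had 35.4 to 79.3 FPKM in EA1 in vitro and 30.8 to 36.6 in vivo and fell by 0.77 (adjusted p = 0.00226), and it was not called in EA2.

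The elongases Elovl6, which lengthens palmitate, and Elovl5, which lengthens polyunsaturated chains, also fell in EA1. Elovl6 had 9.80 to 20.6 FPKM in EA1 in vitro and 6.80 to 9.58 in vivo, without overlap, and fell by 0.81 (standard error 0.16, adjusted p = 0.000917 from limma). Elovl5 had 109 to 132 in vitro and 82.2 to 113 in vivo and fell by 0.29 (adjusted p = 0.0123), a call lost with median-of-ratios scaling at -0.14. Neither was called in EA2. Over all 34 genes, the groups did not overlap for 8 genes that were lower and 2 that were higher in EA1 (background 32.5% and 25.3%), and for 3 that were lower and 5 that were higher in EA2 (background 22.8% and 28.1%).

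**Figure D3:**
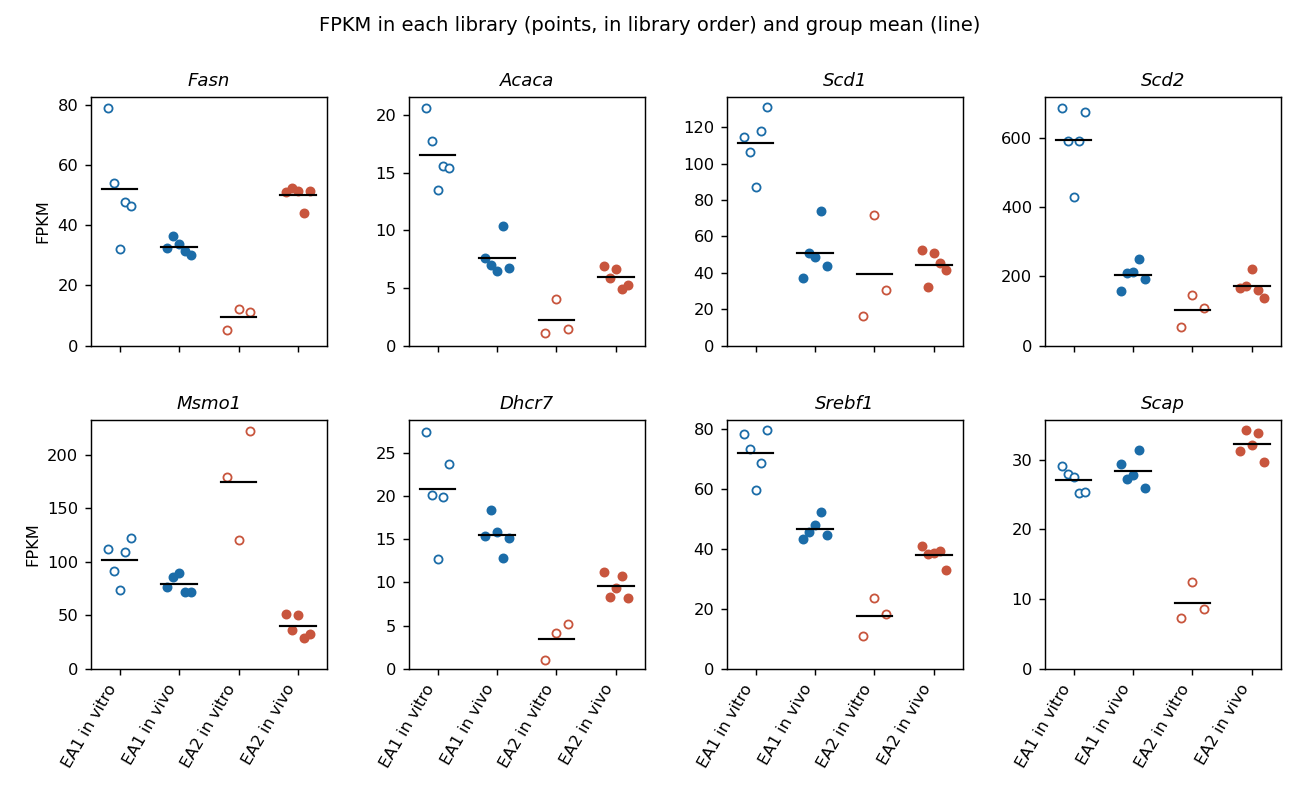
FPKM of 8 genes in each library, with open points for in vitro and filled points for in vivo libraries, EA1 in blue and EA2 in red, on linear axes from 0, and a line at each group mean. Fasn, Srebf1 and Scap sit between 29.7 and 52.5 FPKM in all EA2 in vivo libraries and at 23.7 or below in all EA2 cultures, whereas Scd2 lies at 429 or more in EA1 cultures and at 250.5 or less in EA1 in vivo.

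The change itself differed between EA1 and EA2 for 18 of the 34 genes (limma interaction over 11930 genes, of which 63.3% differed). For 14 the EA2 change was the higher one and for 4 (Idi1, Tm7sf2, Msmo1 and Insig2) the lower one, against 36.3% and 27.1% of all genes. Fatty acid enzymes differed in 9 of 10 cases, all toward EA2, and sterol enzymes in 5 of 18. The count of fatty acid enzymes was 5 under median-of-ratios scaling, 5 without EA2 in vitro library 1 and 3 with EA2 in vitro library 2 alone. The largest differences were 2.94 for Fasn (standard error 0.31, adjusted p = 1.1e-06), 2.36 for Scd2 (0.33, adjusted p = 1.57e-05) and 2.25 for Acaca (0.30, adjusted p = 9.01e-06). Dhcr7 differed by 1.74 (adjusted p = 0.000529), Srebf1 by 1.73 (adjusted p = 8.07e-06) and Scap by 1.63 (adjusted p = 1.1e-06) in the same direction. Msmo1 differed by -1.74 (adjusted p = 6.29e-05) and Insig2 by -1.43 (adjusted p = 0.000475). Insig1, the named gene with no call in either line, had a difference of -0.06 with a standard error of 0.41 (adjusted p = 0.904), so a difference of either sign remains possible at this spread.

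Those 8 differences, of Fasn, Scd2, Acaca, Dhcr7, Srebf1, Scap, Msmo1 and Insig2, were called under every alternative and without any single library. Of all genes, 35.5% to 66.5% differed under the alternatives that kept all libraries and 54.4% to 70.6% with each library left out. The share of all genes that kept a call throughout was not determined. With EA2 in vitro library 2 alone the differences were 2.55 for Fasn, 1.74 for Scd2, 1.48 for Acaca and 1.39 for Dhcr7. There, those of Srebf1, Scap, Msmo1 and Insig2 were 1.26, 1.24, -1.26 and -1.61. Calls for Srebf2, Acly and Scd1 were lost in that setting and in no other. The calls of Elovl5 and Fads1 were lost without EA2 in vitro library 1 (0.48 and 0.53) and under median-of-ratios scaling (0.31 and 0.58). The call of Idi1 was lost without EA1 in vitro library 3, EA1 in vivo library 2 or EA2 in vitro library 3, at -0.94 to -0.78. Those of Elovl6, Hsd17b7, Tm7sf2 and Fads2 were lost without any of 8, 9, 10 and 12 of the 18 libraries.

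The ratio of Fasn to Hmgcs1 FPKM was chosen after the values were seen. Fasn had the largest EA2 rise and Hmgcs1 was not called, so a higher EA2 ratio in vivo was fixed by the choice. It therefore says nothing of the branches as a whole. The ratio was 0.27 to 0.33 in EA2 in vitro and 1.09 to 1.72 in vivo. In EA1 it was 0.73 to 1.36 in vitro and 0.59 to 0.84 in vivo. The EA2 in vitro libraries were close to one another in this ratio although their levels differed. Transcript length differs between these genes, at 10050 bases for Fasn and 3464 for Hmgcs1, and the part of the length trend in the ratio was not tested.

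**Figure D4:**
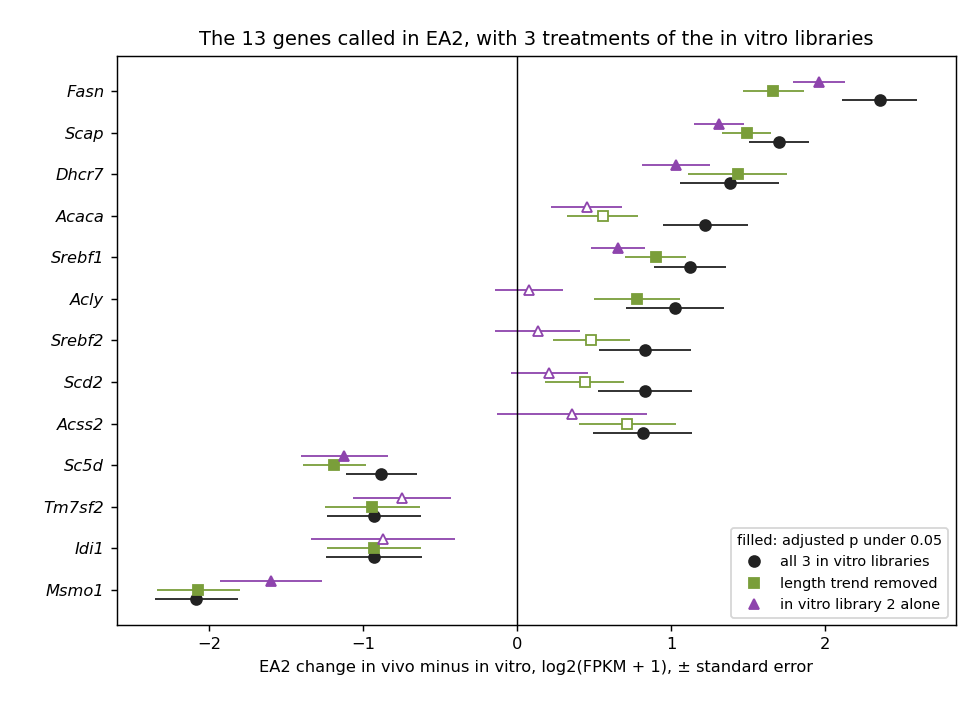
EA2 change (in vivo minus in vitro, log2(FPKM + 1), with standard error) of the 13 genes called in EA2, from all 3 in vitro libraries (circles), after correction for transcript length in each library (squares) and with in vitro library 2 alone (triangles). Fasn, Scap, Dhcr7, Srebf1, Sc5d and Msmo1 keep filled points in all 3, whereas Acaca, Srebf2, Scd2 and Acss2 are open in the other 2.

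In EA2, therefore, calls depended on which cultures were used. With in vitro library 2 alone, 4 genes were higher (Fasn, Scap, Dhcr7 and Srebf1) and 3 lower (Msmo1, Sc5d and Pmvk). Without in vitro library 1, 5 were higher and 8 lower, and without in vitro library 2, 13 were higher and 4 lower. Without in vitro library 3, 6 were higher and 2 lower. The share of all genes called moved with these settings, from 57.3% with all libraries to 29.9% with in vitro library 2 alone and to 42.2%, 66.6% and 45.5% without libraries 1, 2 and 3. The common core of every setting was Fasn, Scap, Dhcr7 and Srebf1 as rises and Msmo1 as a fall. In EA1, leaving out in vitro library 3 raised the number of lower genes from 17 to 24. There, 10 falls (Pmvk, Lss, Srebf1, Stard4, Acaca, Scd1, Scd2, Elovl6, Fads1 and Fads2) and the rises of Insig2 and Acss2 were called in every EA1 setting. Of all genes in EA1, 41% to 77.1% were called in single settings. The share of all genes called in every setting was not determined in either line, so these counts have no background beside them.

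Scaling moved the reference point. Under median-of-ratios scaling the median over all tested genes became 0.05 in EA1, where it had been -0.09, and 0.02 in EA2, where it had been 0.18. After it, EA1 had 5 higher and 10 lower of the 34 genes, and EA2 had 7 higher and 9 lower. Of all genes, 70.7% were then called in EA1 (71.5% before scaling) and 58.7% in EA2 (57.3% before). The median of the 10 fatty acid enzymes became -0.64 in EA1 (-0.79 before scaling) and 0.48 in EA2 (0.64 before), and the EA2 median of all 34 genes went from 0.17 to -0.01. The falls among the fatty acid enzymes in EA1 went from 9 to 6 and the rises in EA2 from 5 to 3.

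Neighbouring routes were read from 6 lists of genes with related roles, to be set against 30.9% higher and 40.7% lower of all genes in EA1 and 32.9% and 24.4% in EA2. Of genes for cholesterol efflux and lysosomal release, many of them targets of LXR, which senses oxysterols, 10 rose and 1 fell of 12 tested in EA1, and 5 of 9 rose in EA2. The largest called changes were those of Ch25h in EA1 (2.47), which makes 25-hydroxycholesterol, and of the lysosomal lipase Lipa in EA2 (2.40, from 2.94 ± 0.915 FPKM in vitro to 21.5 ± 11.3 in vivo). Of lipid uptake genes, 6 rose and 3 fell of 9 in EA1, led by the fatty acid receptor Cd36 (2.95), and 4 rose and 2 fell of 8 in EA2, led by the lipoprotein receptor Lrp1 (3.28, from 7.90 to 82.7 FPKM). Some genes of these counts were nearly silent in culture, were tested only because of their in vivo levels and could therefore only be called higher. Among the rises these were Ch25h, Cyp27a1, Abca1, Mylip, Cd36 and Lpl in EA1 (in vitro means of 0.0247 to 0.431 FPKM) and Abca1 and Nr1h3 in EA2 (0.0734 and 0.358 FPKM), so the counts of both lists overstate the share of rises. Macrophages are known to express Ch25h and Cd36.

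Of fatty acid oxidation genes in EA1, 16 of 20 were higher and 1 lower, with the largest change in Acadl, a chain-shortening dehydrogenase (0.94, from 68.6 to 138 FPKM). In EA2, 10 of 21 were higher and 3 lower, led by Cpt1a, which admits fatty acids to mitochondria (3.35, from 1.37 ± 0.501 FPKM in vitro to 23.1 ± 4.35 in vivo). Of other genes of fatty acid, glyceride and phospholipid synthesis, 1 rose and 7 fell of 20 in EA1, with the largest change in the acyl-CoA synthetase Acsl3 (-1.15). In EA2, 8 rose and 1 fell of 20, and the largest change was that of the choline kinase Chka (-1.74). In EA2, Pdk4 of the oxidation list and Lpin1 and Dgat2 of the synthesis list likewise had in vitro means of 0.571 FPKM or less and could only be called higher.

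The nonsterol branches that use farnesyl diphosphate gave 1 rise and 6 falls of 11 in EA1, with Pdss1 (-1.14), and 4 rises and 5 falls of 11 in EA2, with Coq2 (-2.22), and both act in ubiquinone synthesis. Genes of SREBP cleavage and sterol sensing gave 3 rises and 2 falls of 10 in EA1 and 3 rises and 2 falls of 9 in EA2, shares at or below those of all genes except for the rises in EA2 (33.3% against 32.9%). The largest changes there were -0.83 for Tmem97, a sterol-binding membrane protein, in EA1, and 1.56 for Mbtps1, the Golgi protease that makes the first cut in SREBP, in EA2 (from 20.2 to 60.04 FPKM).

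Markers of other cell types moved with the in vivo condition. The summed FPKM of 17 macrophage markers was 54.1 to 68.7 in EA1 in vitro and 150.4 to 329 in vivo. In EA2 it was 49.5 to 71.5 in vitro and 39.1 to 169 in vivo. Mrc1 (EA1 mean 31.2, EA2 mean 20.3) and Cd14 (28.0, 33.8) made up most of the culture sums. The in vivo means of Mrc1 were lower (6.51 and 4.25) and those of Cd14 higher (121 and 42.7). Cd68 had a lower in vivo mean in EA2 (8.75 in culture, 6.10 in vivo) and a higher one in EA1 (1.04 and 6.42). The other macrophage markers had higher in vivo means in both lines, with F4/80 (Adgre1) at the floor in vitro in both. For 11 fibroblast markers the sums were 4.29 to 7.01 and 169.8 to 2904 in EA1, and 0.483 to 21.4 and 348 to 813 in EA2. The EA2 in vivo sums were mostly Dcn (mean 506, and 7.31 in culture), with Lum, Postn, Fap and Tcf21 at means of 0.126 or less. For 5 club and ciliated cell markers the sums were 0.742 to 1.44 and 254 to 952 in EA1, and 0.151 to 1.26 and 12.3 to 167 in EA2. For 8 endothelial markers they were 0.121 to 0.195 and 19.9 to 55.6 in EA1, and 0.179 to 0.457 and 0.707 to 12.3 in EA2. The 6 neutrophil markers in the tables summed to 0.363 or less and 5.80 to 22.1 in EA1, and to 0.26 to 1.31 and 1.17 to 6.85 in EA2. For 10 alveolar type 2 markers, cells known for high lipid synthesis, they were 40.1 to 49.3 and 73.8 to 258 in EA1, and 22.9 to 46.0 and 39.5 to 69.2 in EA2. Etv5 (EA1 mean 29.0, EA2 mean 16.3) and Lpcat1 (11.2, 17.6) made up most of the culture sums. The EA1 in vivo means of Etv5 and Lpcat1 were lower (16.0 and 7.93), and the EA2 ones higher (23.3 and 21.8). Sftpc had an in vivo mean of 68.7 in EA1, against 0.0650 in culture. Its EA2 mean was 5.70, against 0.0311. For 6 adipocyte markers, the sums were 2.95 to 5.09 and 2.84 to 5.04 in EA1 and at most 0.551 in EA2, with Retn at the floor in every group and the adipocyte hormone Adipoq at a mean of 0.0238 FPKM or less in vivo in each line. The 9 markers of T, B and NK cells summed to at most 2.16 in any library. The part of these cell types in the changes of the 34 genes was not tested.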

How the data were processed

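RNA-seq was read from 18 libraries, in 1 FPKM table per line. Per the submitters' processing notes the authors used FastQC and Cufflinks 2.0.2 with mm10, and the study's methods give STAR alignment of stranded polyA libraries and a later Cufflinks release. No annotation version was named there. The deposited FPKM are already scaled by length and depth, so the depth of each library is unknown and no counting interval is given. Of depth, the study's methods state only a median read number per condition. Entries with a value that was not a number (6 in EA1) or with a date for a name (27 in EA2) were dropped, and 0 value columns went unmatched.

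Each line was fitted alone with limma 3.58.1 (trend; R 4.3.3) on log2(FPKM + 1), keeping genes that reached 1 FPKM in 5 or more libraries of EA1 or in 3 or more of EA2, with Benjamini-Hochberg adjustment over all of them and a threshold of 0.05. A fold change on this scale understates the change of low genes. The difference between lines was the interaction in a fit of all 18 libraries. Exact permutation tests of single genes were two-sided. The text names with every library the 4 genes per comparison with the largest absolute changes, plus Srebf1, Srebf2, Insig1 and Insig2 as regulators and Scd1 with Scd2 as paralogs. Members and lists were chosen with earlier results of these data known. Nothing in the labels says that libraries of a group came from separate cultures, so p-values measure the spread between these libraries, which may be technical.

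Lengths and positions were from GENCODE M21 (GRCm38) and promoters from RefSeq. Alternatives were a pseudocount of 0.1, a filter of 5 FPKM or none, quantile normalization, median-of-ratios scaling, a replicate block, a loess correction for transcript length within libraries (span 0.3), EA2 in vitro library 2 alone, and each library left out. Fits were tested on simulated data. Figures and tables used Python 3.11.15.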

Additional observations from a re-analysis of the deposited data

Results flagged for a closer look

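A library far from the others of its group was found in 5 of 102 tests of a gene in a group, and chance flags about 1 in 20. EA2 in vitro, with 3 libraries, was too small a group for this test and was left out of it. In EA1 in vivo library 4, Insig1 (29.8 FPKM), Acaca (10.3) and Fads1 (47.7) were high, and in EA2 in vivo library 4, Pmvk (8.44) and Fasn (44.0) were low. EA1 in vivo library 4 also had the highest summed fibroblast markers, at 2904 FPKM, and the part of this in the 3 genes was not tested.

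The change of 18 genes differed between EA2 and EA1 in the interaction fit. The EA2 change was the higher by 2.94 for Fasn, 2.36 for Scd2, 2.25 for Acaca, 1.74 for Dhcr7, 1.73 for Srebf1, 1.63 for Scap, 1.55 for Scd1, 1.38 for Acly, 1.23 for Fads2, 1.07 for Srebf2, 0.96 for Hsd17b7, 0.91 for Fads1, 0.79 for Elovl6 and 0.64 for Elovl5. It was the lower one for 4 genes, with differences of -1.74 for Msmo1, -1.43 for Insig2, -1.05 for Tm7sf2 and -0.98 for Idi1. The lines differ in p53 status, in the number of cells given and in their in vitro libraries, and these cannot be told apart.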

How the results depend on the processing

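The 34 genes gave 3 higher and 17 lower in EA1, 9 higher and 4 lower in EA2, and 18 that differed between the lines. Median-of-ratios scaling gave 5 higher and 10 lower in EA1 and 9 lower in EA2. Lower genes in EA2 were 9 under quantile normalization and 2 without the filter on low values. The share of all genes called moved as well. It was 71.5% in EA1 and 57.3% in EA2 at first, and 70.7% and 58.7% under median-of-ratios scaling. It was 72.8% and 57.5% under quantile normalization and 41% and 34.7% without the filter. With EA2 in vitro library 2 alone, 4 were higher in EA2 and 8 differed between the lines; in that fit the lone library is assumed to vary like the in vivo group. Leaving out each library in turn gave 2 to 3 higher and 15 to 24 lower in EA1, 5 to 13 higher and 2 to 8 lower in EA2, and 14 to 19 that differed. Of all genes, 68.1% to 77.1% were then called in EA1 and 42.2% to 66.6% in EA2, and 54.4% to 70.6% differed. A replicate block gave 3 higher and 15 lower in EA1, 8 higher and 2 lower in EA2, and 14 that differed. With the block, 69.5% of all genes were called in EA1 and 47.2% in EA2, and 60.8% differed. Deviations of same-numbered libraries from their group means correlated at -0.13 to 0.077 over the tested genes. This gave no sign of pairing by number but cannot exclude it.

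Signs turned only for genes without a call. The EA2 change of Fads1 was -0.13 with median-of-ratios scaling, -0.00298 with the replicate block, -0.041 with the length trend removed and -0.71 with EA2 in vitro library 2 alone, and -0.34 to 0.42 with each library left out. That of Scd1 was -0.70 with EA2 in vitro library 2 alone and -0.087 to 0.96 with each library left out. The difference between lines for Insig1 was 0.11 with the replicate block, 0.0498 with the length trend removed and 0.0482 with EA2 in vitro library 2 alone, and -0.36 to 0.29 with each library left out. The cause was not tested. The depth of each library is unknown, and 3 EA2 cultures limit every EA2 comparison. Reads shared by Scd1 and Scd2 or by Fads1 and Fads2 may be split unevenly.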
